A study of Mus musculus with 2 samples.

Results

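Translation initiation and elongation factors are the proteins that bring an mRNA, the initiator tRNA and the ribosomal subunits together and then move the ribosome along the coding sequence. Their genes were taken here by symbol. Every gene of the deposited table whose symbol begins with Eif1 to Eif6, Eef1 or Eef2 was a member, leaving out the eIF2 kinases (Eif2ak) and symbols marked as pseudogenes (-ps). The rule used no measured value, and it found 72 genes among 42392 gene IDs, all 72 protein-coding by RefSeq.

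RNA was sequenced from hair follicle stem cells, which sit in the bulge of the follicle and rebuild the hair in each cycle. They were sorted from the skin of female mice as integrin alpha 6 high and CD34 positive cells, without SCA1 or the markers CD140a, CD117, CD31 and CD45. Both samples of the series carried K15-CrePGR, a Cre fused to the progesterone receptor under a keratin 15 promoter, were Shh+/-, and had received RU486, the ligand of that receptor, for 8 days. The titles call both controls, 1 in telogen, the resting phase, and 1 in anagen II-III, early growth. Only the anagen II-III library has a column that its own label identifies, so the values below describe that 1 library, and the telogen library was not analysed here. It has no replicate, and the number of animals pooled in it is not labelled. Values are TPM, a measure of transcript abundance that divides by gene length and library total and keeps no read depth. Levels are therefore given without an error, and no test could be run. In such a bulk library, fewer cells that express a gene and less of its RNA per cell cannot be told apart.

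The labelled cell type was checked against its markers. All 8 bulge markers were above 5 TPM, from Nfatc1 at 16.1 to Krt15 at 3364 TPM. Of 6 markers of excluded cells, Ptprc was lowest at 0.264 TPM, Pecam1, Pdgfra and Kit stood at 2.01, 1.44 and 1.17 TPM, and the melanocyte gene Mlana and the SCA1 gene Ly6a stood at 12.6 and 16.4 TPM. The part of RNA from other cells in the factor levels was not tested.

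Initiation begins when eIF1, eIF1A, eIF3, eIF5 and the eIF2 complex with GTP and initiator tRNA load the small ribosomal subunit. The eIF4 factors bind the cap, unwind the leader and bridge the mRNA to this complex, and eIF5B joins the large subunit. In elongation, eEF1A delivers aminoacyl-tRNA, the eEF1B complex recharges eEF1A with GTP, and eEF2 moves the ribosome by 1 codon. In the integrated stress response, which the series title names, phosphorylated eIF2 blocks its exchange factor eIF2B, and most initiation slows while ATF4 is made.

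Most members were well expressed, and their levels spanned a wide range. Of the 72 members, 60 reached 1 TPM, or 83.3%, against 55.9% of 20857 nuclear protein-coding genes. At 5 TPM or more there were 57 members, against 42.4% of those genes, and above 0 there were 63 members, against 79.7%. The median over all 72 members was 35.4 TPM, 14.6-fold the 2.42 TPM median of all nuclear protein-coding genes. With genes under 1 TPM left out, the 60 members and 11667 protein-coding genes had medians of 50.3 and 12.5 TPM, and the fold was 4.03. In the ranking of nuclear protein-coding genes by TPM, 34 members were in the highest 10%, and 18 members stood at 100 TPM or more, which is 25.0% of members and 3.46% of those genes.

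**Figure D1:**
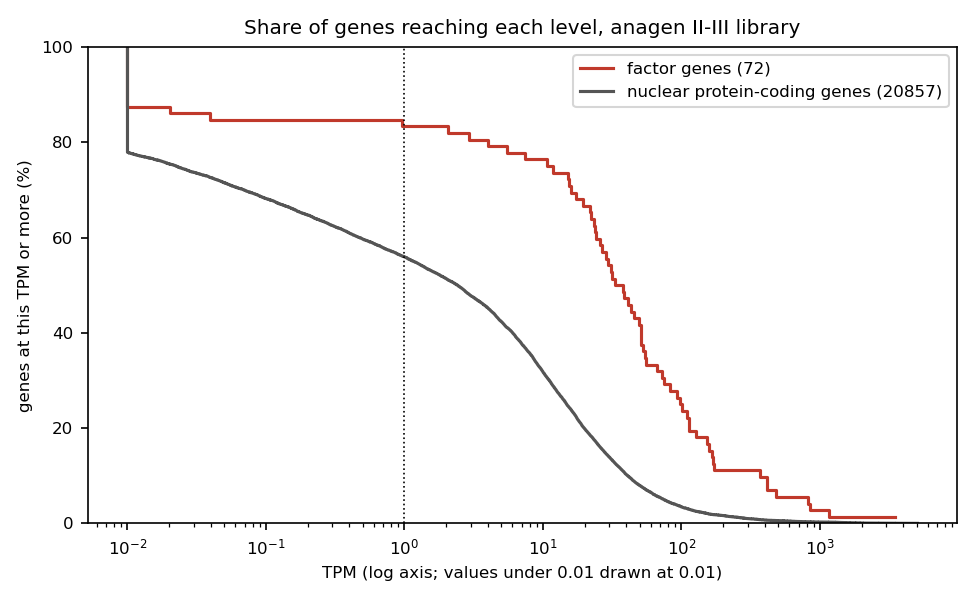
Percentage of genes (vertical axis) at or above each TPM (horizontal log axis) in the anagen II-III library, for the 72 factor genes and for 20857 nuclear protein-coding genes; the dotted line marks 1 TPM. The factor curve lies above the other at 1 TPM, with 83.3% against 55.9% of genes, and at 100 TPM, with 25.0% against 3.46%.

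A few genes carried most of the transcripts. The members together held 2.27% of the TPM of nuclear protein-coding genes. As listed, without pseudogene copies, Eef1a1 alone supplied 32.0% of the members' total. The 6 highest genes, Eef1a1, Eef1b2, Eif4g2, Eef2, Eif1 and Eif5a, supplied 66.2%. The 13 Eef genes supplied 56.7% of it, and the 59 Eif genes the rest. At the other end, 9 members were listed at 0 TPM and 3 more lay above 0 but under 1 TPM. The groups are described below by factor number, with the Eif genes first.

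**Figure D2:**
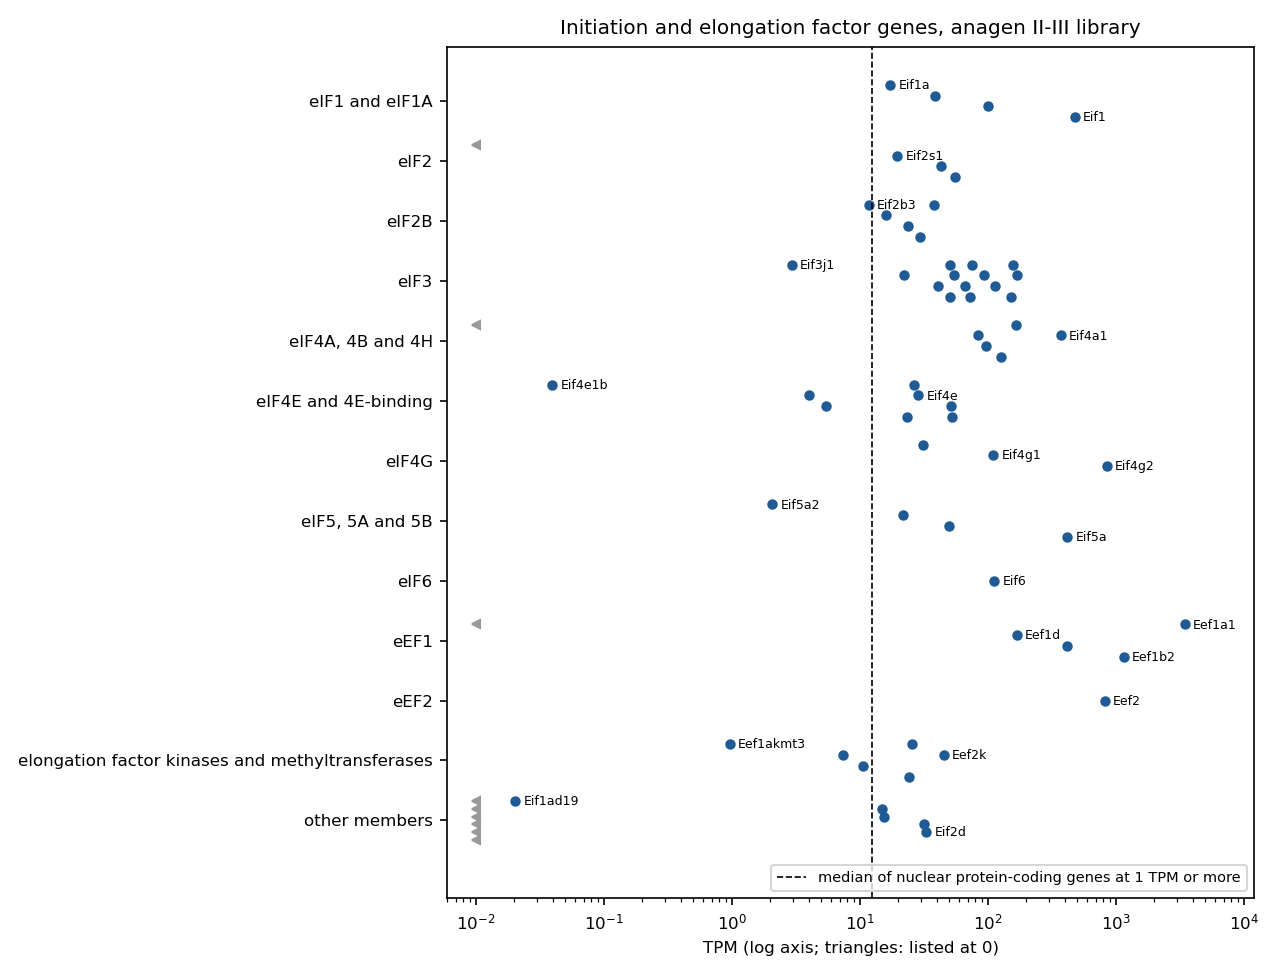
TPM of each of the 72 members in the anagen II-III library (log axis), in rows by factor; each point is 1 gene, and grey triangles mark the 9 genes listed at 0. The dashed line is the 12.5 TPM median of nuclear protein-coding genes at 1 TPM or more. The eEF1, eEF2 and eIF4G rows reach farthest right, with Eef1a1 at 3472 TPM, and the 5 eIF2B genes lie between 11.7 and 37.7 TPM, on both sides of the line.

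Sequences near the start of the genes are shown because the E-box CACGTG, which MYC and related factors bind, was the motif, of the 3 searched, whose share in the members lay farthest from that in other genes. RefSeq promoters (GRCm38.p6, which is the mm10 assembly), each 300 bases long with 250 before and 50 from the annotated start, were found for 53 members. CACGTG, which reads the same on both strands, stood in 11 of 53 member promoters, or 20.8%, against 8.13% of 16736 promoters of nuclear protein-coding genes. The background share was higher among expressed genes. For genes at 1 TPM or more the shares were 23.9% of 46 members and 10.4% of 9411 genes, and for 7325 genes under 1 TPM the share was 5.27%. No test was made of these shares. Base composition moved with this: the median promoter held 24 CpG pairs in the 46 members, 21 in the 9411 genes and 4 in the 7325 genes, and its part in the shares was not tested. The 30 bases around the E-box (capitals) are given for 9 of the members that hold it, on the gene's own strand, 5′ to 3′. The farther flanks differ, but the base just before the motif is T in Eef2, Eif3k, Eif3f, Eif4g1, Eif3a and Eif1b.
Eef2: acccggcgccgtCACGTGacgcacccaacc
Eif4a1: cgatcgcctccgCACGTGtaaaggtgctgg
Eif3k: ctggaaggaaatCACGTGgtagacaaaaaa
Eif3f: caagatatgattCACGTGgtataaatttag
Eif4h: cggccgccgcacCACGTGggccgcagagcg
Eif4g1: ggcagtgggtgtCACGTGatggggcggagc
Eif3a: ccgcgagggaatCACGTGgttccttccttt
Eef2k: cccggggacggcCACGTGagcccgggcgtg
Eif1b: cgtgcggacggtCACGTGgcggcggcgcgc
These windows are chr10:81176576-81176605 (+), chr11:69672595-69672624 (-), chr7:28981915-28981944 (-), chr7:108934335-108934364 (+), chr5:134639488-134639517 (-), chr16:20672661-20672690 (+), chr19:60790654-60790683 (-), chr7:120842788-120842817 (+) and chr9:120492570-120492599 (+), in the same order. The other 2 holders were Eef1aknmt and Eif5a2, at 7.46 and 2.07 TPM. For Eef2k, Eef1aknmt and Eif5a2 the promoter start lay 189, 196 and 245 bases from the end of the RefSeq span. Their E-boxes lie within that span. So do that of Eif3a, at base 23 from the start, and the copy in Eif4g1 that is not printed, at base 16. Eif4g1 and Eif5a2 each held 2 copies. The 11 holders ranged from 2.07 to 819 TPM with a median of 110.5 TPM. The 42 members without the E-box ranged from 0 to 3472 TPM with a median of 31.3 TPM, so the ranges overlap. Every searched member under 1 TPM was among those without the E-box, which lowers their median. Of the 6 highest members, Eef2 holds CACGTG, Eef1a1, Eef1b2, Eif1 and Eif5a do not in these windows, and Eif4g2 was not searched.

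The element through which ATF4 acts was near its background share in expressed members. Its core TGATGNAA, searched on both strands, stood in 3 of 53 member promoters (5.66%) against 3.46% of protein-coding promoters. Of the 46 expressed members 1 held it, or 2.17%, against 2.25% of expressed protein-coding genes. That member was Eif2s3x, which encodes the gamma subunit of eIF2, at 55.6 TPM. Its core lies on the strand opposite to the gene, so the capitals show its reverse complement (chrX:94212729-94212758, -).
Eif2s3x: ttcgccatcatTTTCATCAggtctatgccg
The other 2 were Eif1ad2 and Eif1ad6, both listed at 0.

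Many mRNAs of the translation machinery are known to begin with a terminal oligopyrimidine (TOP) tract, through which mTOR controls their translation. Of 10 members known for one, 9 reached 1 TPM, near the 83.3% of all members (55.9% of nuclear protein-coding genes), and their median over all 10 was 169.7 TPM. A run of at least 6 C or T within 10 bases of the annotated start was found on the gene's strand in 10 of 53 member promoters (18.9%), against 20.6% of protein-coding promoters. Of the 6 known TOP members with a RefSeq promoter, 2 had such a run, Eef1a1 and Eif3f, and Eef1a2, Eef1b2, Eef2 and Eif4b did not. The windows from 10 bases before the annotated start to 20 bases from it are printed for the contrast, with the run in capitals, or the first base where there was none.
Eef1a1: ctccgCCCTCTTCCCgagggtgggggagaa
Eif3f: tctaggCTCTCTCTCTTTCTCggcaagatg
Eef1b2: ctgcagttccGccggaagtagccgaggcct
Eef2: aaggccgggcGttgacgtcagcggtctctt
These lie at chr9:78481705-78481734 (-), chr7:108934405-108934434 (+), chr1:63176821-63176850 (+) and chr10:81176621-81176650 (+). The annotated start can differ from the start used in these cells, so a missing run says only that these letters are not in the window. A run in capitals likewise says only that the letters are there. It does not show that the mRNA begins with them, for Eef1a1 and Eif3f as for the others.

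The eIF1 and eIF1A genes, whose products scan for the start codon, had 1 dominant member each. Eif1 stood at 477 TPM and its relative Eif1b at 38.6 TPM, a 12.4-fold difference. Eif1ax, on the X chromosome, stood at 100.7 TPM and the autosomal Eif1a at 17.3 TPM, a 5.81-fold difference.

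The eIF2 genes were moderate in level and the alpha subunit was lowest. Eif2s1, which encodes the alpha subunit that the stress kinases phosphorylate (ENSMUSG00000021116, chr12:78862072-78887010), stood at 19.6 TPM. Eif2s2, the beta subunit, stood at 43.4 TPM and Eif2s3x, the gamma subunit, at 55.6 TPM, 2.84-fold above Eif2s1. Eif2s3y, the Y-linked gamma gene, was listed at 0 in this library from female mice. The 5 genes of eIF2B, the exchange factor, lay within a narrow range of 3.21-fold: Eif2b2 stood at 37.7, Eif2b5, the catalytic epsilon subunit, at 29.7, Eif2b4 at 23.6, Eif2b1 at 16.0 and Eif2b3 at 11.7 TPM. The median eIF2B gene stood at 23.6 TPM, between the alpha and beta genes of eIF2. TPM counts transcripts, and neither protein amounts nor phosphorylation were measured.

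The eIF2 kinases were expressed below their substrate and the phosphatase genes above the kinases. Eif2ak1 stood at 11.4, Eif2ak4 at 6.26, Eif2ak2 at 4.65 and Eif2ak3 at 3.87 TPM. Eif2s1 was 1.72-fold above the highest of them and 0.748 times their sum. Of the phosphatase genes, the stress-induced targeting subunit Ppp1r15a stood at 34.0, the constitutive Ppp1r15b at 13.7 and the catalytic Ppp1cc, on a gene ID that the table shares with the copy Ppp1ccb, at 117 TPM. The effector Atf4 stood at 127 TPM.

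The eIF3 complex, the scaffold on the small subunit, showed all 14 genes at 1 TPM or more, with a median of 69.4 TPM. The 8 subunits of its PCI and MPN core ranged 4.15-fold as listed. With the pseudogene copies named for Eif3e added to it, Eif3e would be highest, 25.3-fold above Eif3c. Eif3h stood at 171, Eif3k at 157, Eif3f at 153, Eif3l at 93.2, Eif3e at 72.7, Eif3a at 51.1, Eif3m at 51.1 and Eif3c at 41.2 TPM. The subunits of the other module lay within a 1.72-fold range, with Eif3i at 114, Eif3b at 75.3 and Eif3g at 66.2 TPM, and the cap-binding subunit Eif3d stood at 54.1 TPM. The loosely bound subunit eIF3j comes from a pair of genes. Eif3j2, whose span is 2419 bases, stood at 22.2 TPM, and Eif3j1, whose span is 25053 bases, at 2.95 TPM. As they are close copies, the split of their reads is uncertain.

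Within the cap-binding eIF4F complex, helicase transcripts were most abundant and cap-binding transcripts least. Eif4a1, the main helicase, stood at 371 TPM, the scaffold Eif4g1 at 110.5 TPM and the cap-binding Eif4e at 28.5 TPM, so Eif4a1 was 3.36-fold above Eif4g1 and 13.0-fold above Eif4e. Eif4a2 stood at 166 TPM, 2.23-fold under Eif4a1. With the copy Eif4a-ps4 added to Eif4a1, these folds would be 6.59, 25.5 and 4.38. Eif4a3, the exon junction helicase, stood at 83.3 TPM. The helicase cofactors Eif4h and Eif4b stood at 128 and 96.9 TPM. Eif4a3l1 was listed at 0.

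The eIF4G family was led by its non-canonical member. Eif4g2, which encodes DAP5, a relative without the eIF4E-binding part that works in cap-independent initiation (ENSMUSG00000005610, chr7:111067985-111083030), stood at 849 TPM. It was 7.68-fold above Eif4g1 and 27.3-fold above Eif4g3, which stood at 31.1 TPM. Among all nuclear protein-coding genes Eif4g2 ranked 70th.

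The eIF4E relatives and inhibitors were low to moderate. Eif4e2, a cap-binding relative that acts in repression, stood at 51.4 TPM, 1.81-fold above Eif4e. Eif4e3 stood at 4.04 TPM, 7.06-fold under Eif4e, and Eif4e1b, known from oocytes, at 0.0395 TPM. The 4E-binding proteins sequester eIF4E until mTOR phosphorylates them. Eif4ebp1, an ATF4 target gene, stood at 52.8 TPM, Eif4ebp2 at 23.3 TPM and Eif4ebp3 at 5.50 TPM. Their sum was 2.86-fold the level of Eif4e. Eif4enif1, the eIF4E transporter, stood at 26.7 TPM.

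The genes named for eIF5, eIF5A, eIF5B and eIF6 ranged from 2.07 to 416 TPM. Eif5a, which carries hypusine, a modified lysine, and helps ribosomes past difficult peptide bonds, stood at 416 TPM. It was 201-fold above its relative Eif5a2 at 2.07 TPM, the largest fold among the 12 pairs in which both genes were above 0. Eif5, which activates the GTPase of eIF2, stood at 49.5 TPM and Eif5b at 21.9 TPM. Eif6, which keeps free large subunits apart from small ones, stood at 112.8 TPM.

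**Figure D3:**
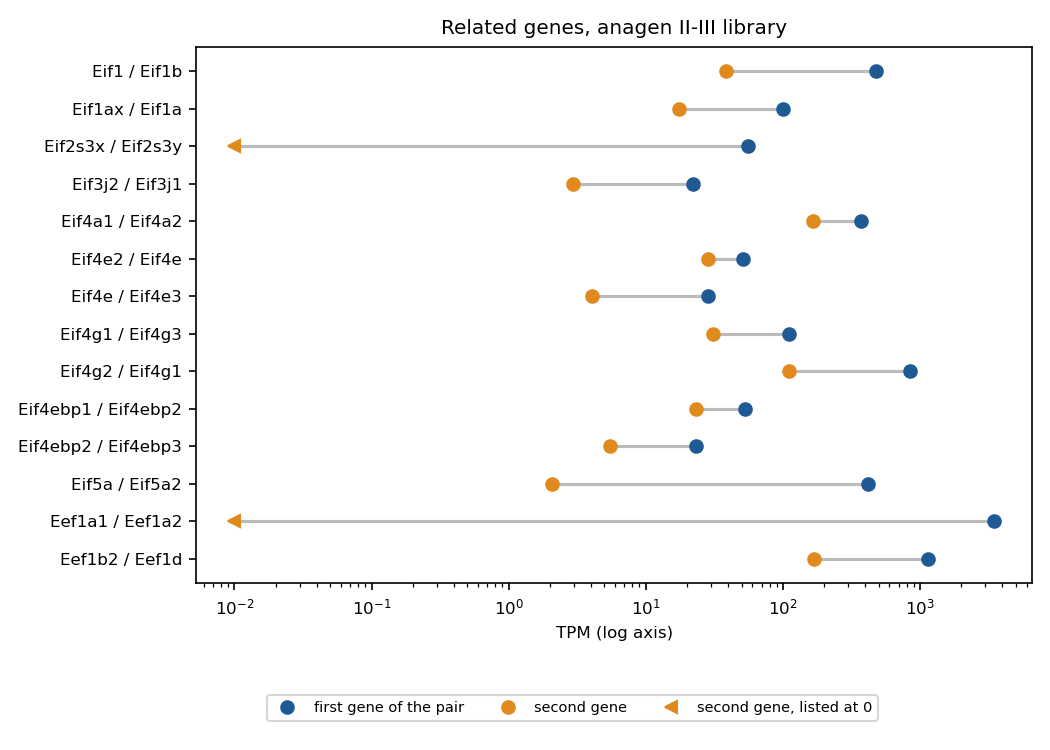
TPM of both genes of 14 pairs of related factors in the anagen II-III library (log axis), joined by a line; blue is the first gene named, orange the second, and triangles mark second genes listed at 0. Lines run from 1.81-fold for Eif4e2 and Eif4e to 201-fold for Eif5a and Eif5a2, and Eif2s3y and Eef1a2 are listed at 0.

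Elongation factor genes held the first and second places among the members, although the median of the 13 Eef genes, 25.6 TPM, was under the 37.7 TPM of the 59 Eif genes. Eef1a1, which delivers aminoacyl-tRNA (ENSMUSG00000037742, chr9:78478453-78481724), stood at 3472 TPM and ranked 5th among nuclear protein-coding genes. Eef1a2, the form of muscle and neurons, was listed at 0. Of the subunits of the eEF1B exchange complex, Eef1b2 stood at 1154, Eef1g at 413 and Eef1d at 169 TPM. Transcripts of the 3 subunits were thus unequal, by 2.80-fold between Eef1b2 and Eef1g and by 2.45-fold between Eef1g and Eef1d. Eef2, the translocase, stood at 819 TPM, 4.24-fold under Eef1a1.

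The enzymes that modify elongation factors were far lower than their substrates. Eef2k, the kinase that inhibits eEF2, stood at 45.5 TPM, 18.03-fold under Eef2. The methyltransferase genes Eef1akmt1, Eef1akmt2, Eef2kmt, Eef1aknmt and Eef1akmt3 stood at 25.6, 24.3, 10.7, 7.46 and 0.962 TPM. The 2 hypusine enzymes of eIF5A, Dhps and Dohh, stood at 18.8 and 28.5 TPM. The 7 genes for diphthamide, the modified histidine of eEF2, ranged from Dph5 at 5.23 to Dph3 at 24.7 TPM.

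The remaining members are not parts of the canonical complexes. Eif2d and Eif2a, which can bring tRNA to the ribosome without eIF2, stood at 33.0 and 31.6 TPM. Eif1ad stood at 15.5 TPM, and Eef1e1, a part of the aminoacyl-tRNA synthetase complex, at 15.1 TPM. The 7 numbered relatives of Eif1ad (2, 3, 6, 7, 8, 16 and 19) all lie between 87514316 and 88274497 on chromosome 12. Of these, 6 were listed at 0 and Eif1ad19 stood at 0.0203 TPM, so this cluster makes up 6 of the 9 members at 0. Eif2s3y, Eef1a2 and Eif4a3l1 are the other 3.

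Genes outside the symbol rule that act with the factors stood at 1 TPM or more in all 9 lists of them, the eIF2 kinases included, as did 55.9% of nuclear protein-coding genes. Pabpc1, the poly(A)-binding protein that joins the mRNA tail to eIF4G, stood at 299.9 TPM, 2.71-fold above Eif4g1, with its inhibitor Paip2 at 104 TPM. Of the genes that act on eIF4E or eIF4A, the helicase Ddx3x stood at 96.3, the eIF4A inhibitor Pdcd4 at 68.9, the eIF4E kinases Mknk2 and Mknk1 at 66.6 and 17.3, the TOP mRNA regulator Larp1 at 23.7 and Gigyf2 at 21.1 TPM. The reinitiation pair Denr and Mcts1 stood at 67.3 and 55.7 TPM and the recycling factor Abce1 at 27.1 TPM. The release factors Etf1 and Gspt1 stood at 337 and 74.7 TPM, and Gspt2 at 1.52 TPM. The mitochondrial counterparts were lower: Tufm, the mitochondrial eEF1A, stood at 45.0 TPM, 77.1-fold under Eef1a1, and Gfm1, an eEF2 counterpart, at 17.7 TPM, 46.4-fold under Eef2.

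**Figure D4:**
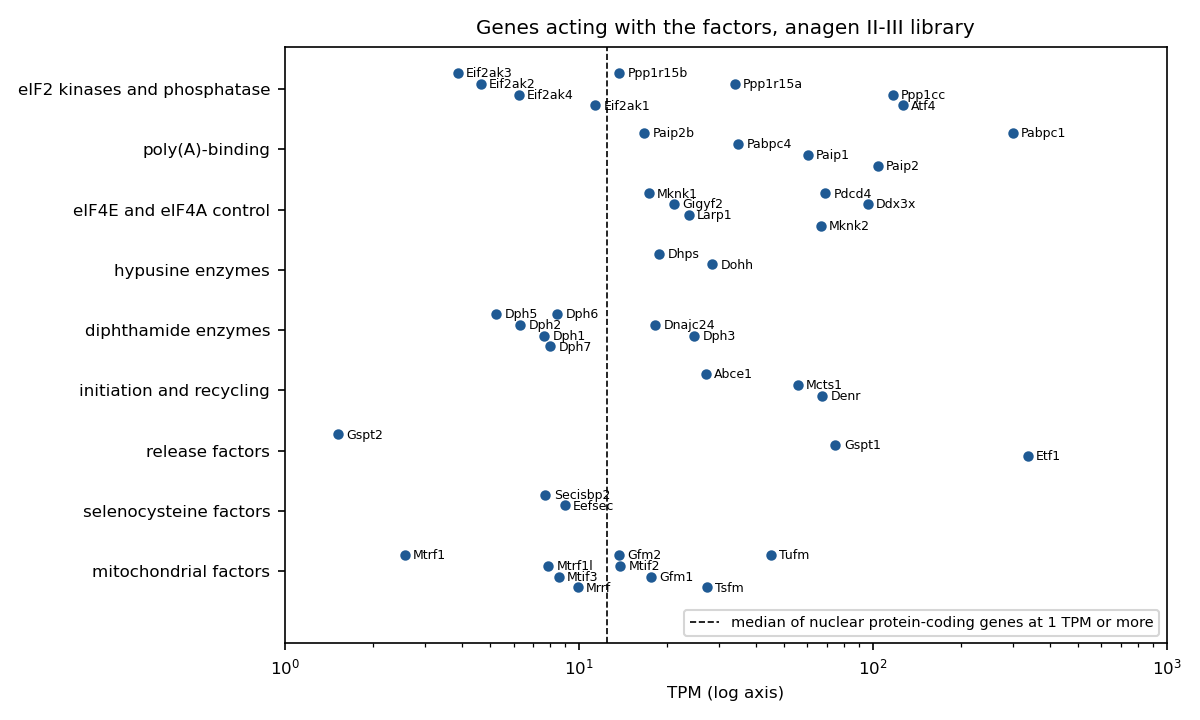
TPM of genes that act with the factors in the anagen II-III library (log axis), in rows by list; each point is 1 gene, and the dashed line is the 12.5 TPM median of nuclear protein-coding genes at 1 TPM or more. Etf1 at 337 and Pabpc1 at 299.9 TPM lie farthest right, and the 4 eIF2 kinases lie left of the line.

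Some values depend on how reads were divided among copies. Several members have processed pseudogenes that the rule leaves out, and these were examined after their values were seen. Eif3s6 is an older name of Eif3e, and the table gave Eif3s6-ps2 at 869.8 TPM and Eif3s6-ps1 at 97.0 TPM, against 72.7 TPM for Eif3e itself. Eif4a-ps4, taken here as a copy of Eif4a1, stood at 357 TPM against 371 TPM, and Eif5al3-ps at 164 TPM against 416 TPM for Eif5a. With these copies added, Eif3e would be the highest eIF3 gene at 1039 TPM, 14.3-fold its own value, and Eif4a1 would stand at 728 TPM and Eif5a at 580.1 TPM. Eif3e and Eif4a1 would then be among the 6 highest members, in place of Eif1 and Eif5a. Copies of Eef2 and Eif1 stood at 0.495 TPM and at most 1.003 TPM. The values do not show which of the copies the reads came from, and copies that are not named for a factor, such as those of Eef1a1, were not counted.

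**Figure D5:**
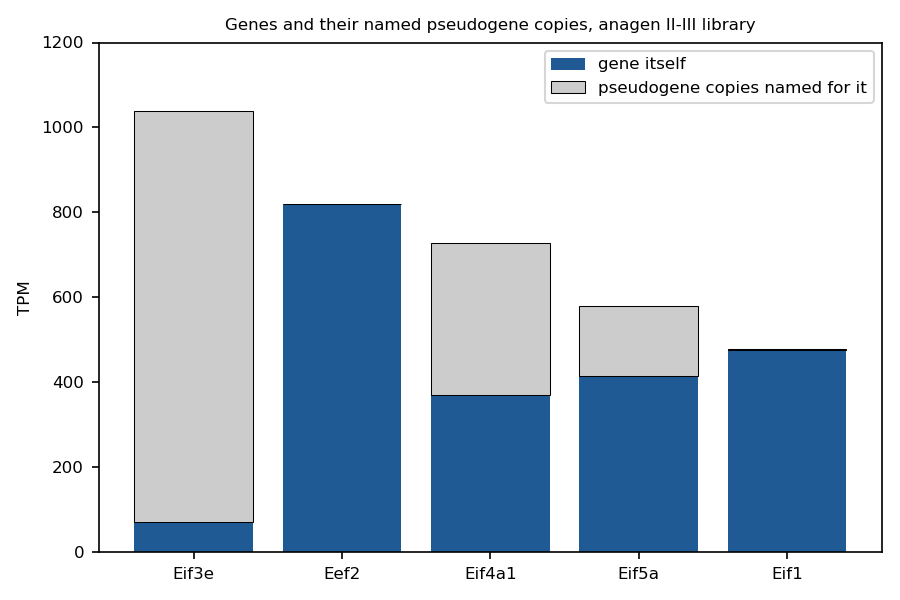
TPM of 5 members (blue) in the anagen II-III library with the summed TPM of the pseudogene copies named for each stacked on top (grey). The grey part is larger than the blue for Eif3e, nearly as large for Eif4a1, smaller for Eif5a and too small to see for Eef2 and Eif1.

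Some members hold genes of other RNAs within their span. Small nucleolar RNA genes, which guide modification of ribosomal RNA and are usually made from introns, lay within 8 of 72 members (11.1%), against 1.76% of nuclear protein-coding genes and 2.35% of those at 1 TPM or more. The 8 were Eif4a2 with 5, Eif4a1 with 3, Eef1b2 with 2, and Eif4g2, Eef2, Eif4g1, Eif3a and Eif5 with 1 each. Their levels ran from 49.5 TPM for Eif5 to 1154 TPM for Eef1b2, with a median of 269 TPM, against 29.1 TPM for the other members. Nuclear protein-coding genes with and without such a gene had medians of 8.20 and 2.32 TPM. Among those at 1 TPM or more the medians were 16.3 and 12.4 TPM. Among genes at 1 TPM or more, the median span was 15188 bases in the 60 members and 23024 bases in 11667 nuclear protein-coding genes. The 18 members at 100 TPM or more had a median span of 8102 bases and the 42 others at 1 TPM or more one of 20477 bases, against 8192 and 24249 bases in all nuclear protein-coding genes split at the same levels. Spearman's rho between span and TPM was -0.30 across these 60 genes and -0.18 across 11667 protein-coding genes, as a description across genes, which are not independent replicates.

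The spans of 14 members, or 19.4%, overlapped another protein-coding gene, near the 16.9% of all nuclear protein-coding genes. The longest overlaps were those of Eif2d with Rassf5, over 11250 bases and at 33.0 against 22.4 TPM, and of Eif5b with Rev1, over 2794 bases and at 21.9 against 6.42 TPM. The neighbour was the higher gene for 5 of the 14. Eif1ad at 15.5 TPM shares 64 bases with Banf1 at 145 TPM, Eef1akmt3 at 0.962 TPM shares 466 bases with Mettl1 at 17.4 TPM, and Eif2a at 31.6 TPM shares 64 bases with Serp1 at 52.4 TPM. Whether reads were counted by strand is not given in the sources used here, so reads from shared bases cannot be told apart.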

How the data were processed

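Per the labels' protocols, mRNA libraries of sorted cells were read as paired ends (Illumina). The table that the authors deposited holds TPM, per the file headers. The tools named in the submitters' processing notes are Bowtie2 2.2.9 and RSEM 1.2.30, with mm10 as the build. Annotation and filters: not given in the sources used here. The column numbered 1 was taken as the anagen sample, the only one with a title so numbered. The other 11 columns of per-sample values were not used. Each gene ID was used once. Symbols missing in the file came from a table of gene names. Gene type and position came from RefSeq (GRCm38.p6), matched for 32824 IDs. Nuclear protein-coding genes were counted once per symbol, with the higher value. The 7 numbered Eif1ad genes were matched by older symbols.

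The members and lists were chosen with earlier results of these data known. Any member, and every gene of the fixed lists, could be named; genes that overlap a member or are its pseudogenes were chosen after their values were seen. The outermost promoter that the table lists for each gene was searched; its start lay more than 100 bases from the end of the RefSeq span for 7 of 53 members, at most 1676 bases for Eif4g3. Motif and rule code was tested on simulated data. Protein sequences were not used here, so the planned identity between paralogues was not computed. Python 3.11.15, pandas 2.3.3, numpy 2.4.6, scipy 1.17.1 and matplotlib 3.10.9 were used.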

Additional observations from a re-analysis of the deposited data

How the results depend on the processing

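All values come from 1 library without replicates, and TPM keeps no depth, so no spread or detection limit could be set, and a change at the third digit is counted here as a move. The number of members reached moved little, from 60 at 1 TPM to 57 at 5 TPM and 63 above 0. Rescaling without mitochondrial-genome genes and the 50 highest genes multiplied every value by 1.73. The median of all members became 61.3 TPM, and the group medians became 120.7 TPM for eIF1 and eIF1A, 54.6 for eIF2, 41.0 for eIF2B, 120.3 for eIF3, 194.9 for eIF4A, 4B and 4H, 43.4 for eIF4E and its binders, 191.5 for eIF4G, 61.9 for eIF5, 5A and 5B, 195.5 for eIF6, 715.5 for eEF1, 1420.0 for eEF2 and 30.3 for the modifying enzymes. The members' median was 50.3 TPM over those at 1 TPM or more, and 33.0 TPM with Eif2c5, which fits the rule only by the gene name table. The fold of the members' median over that of protein-coding genes was 4.03 at 1 TPM or more, 2.77 at 5 TPM or more and 6.16 by the mean of log2(TPM + 1), against 14.6. The members' share of 2.27% was 1.09% of all TPM, 1.56% without Eef1a1 and 2.57% with the named pseudogene copies added, an alternative chosen after seeing the data. With these copies the median of eIF3 was 70.8 TPM and that of eEF2 820.0 TPM. The share of member promoters with CACGTG, 20.8%, was 24.5% over any annotated promoter and 18.9% over 200 bases before the start, against 9.17% and 5.97% of protein-coding promoters, both settings chosen after seeing the data. Of the 12 folds between related genes, log2(TPM + 1) moved Eif5a over Eif5a2 from 201 to 135.9, and the named copies moved it to 280. The log2 scale cannot change which gene of a pair is higher, but it changed the order of some folds. Eif3j2 over Eif3j1 went from 7.55 to 5.89, and so below Eef1b2 over Eef1d, which went from 6.85 to 6.81. No paired analysis was possible because 1 library was analysed.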
